A study of Mus musculus with 2 samples.

Results

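Pi16-positive fibroblasts were described in mandibular lymph nodes of mice, beneath the jaw, after subarachnoid haemorrhage (SAH) and after a sham operation. They were chosen by measured values: a cell had to show at least 500 genes and at most 10% mitochondrial unique molecular identifiers (UMIs, each standing for 1 captured transcript), no UMI of the endothelial genes Pecam1 and Prox1, at least 3 UMIs of Dcn and Col3a1 together, at least 1 UMI of Pi16 and none of Tnfsf11. Of 22611 cells that passed the filters on genes and mitochondrial UMIs, 129 met the whole rule, with 57 in the SAH library and 72 in the sham library. The same rule without the Pi16 and Tnfsf11 conditions gave 3163 gated fibroblasts, of which 2405 had neither Pi16 nor Tnfsf11 UMIs. These 2405 cells, 1267 from SAH and 1138 from sham, are called the other fibroblasts below.

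SAH was induced by infusing each animal's own blood, and nodes were taken 24 h after that or after the sham surgery. Nodes of 20 mice were pooled into 1 library per condition, so no difference given here could be checked between replicates, and no test across animals was possible. Strain, sex and age are not given in the sources used here. Cells carrying CD45 were depleted and cells carrying CD31 or podoplanin were then enriched on beads, so a share of cells reflects that selection as well as the tissue. The samples are labelled as lymphatic endothelial cells, but the Pi16-positive cells carry fibroblast genes and, by the rule, no Pecam1 or Prox1.

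Pi16 (peptidase inhibitor 16, a protein-coding gene at chr17:29318796-29328903 in RefSeq, build GRCm38.p6) marks fibroblasts found around larger vessels and in connective tissue sheaths of many mouse organs. They are often called adventitial or universal fibroblasts, and are thought of as a reserve population that can give rise to more specialised fibroblasts. They deposit collagens, elastic microfibrils and matrix regulators, and they secrete chemokines and complement proteins. The fibroblasts inside a lymph node, the reticular cells, instead guide lymphocytes with Ccl19, Ccl21 and Cxcl13.

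The 2 libraries held 78497486 UMIs in 13766 barcodes for SAH and 72860197 UMIs in 13952 barcodes for sham, and 76 barcode sequences occurred in both, 1 of them a Pi16-positive cell of the SAH library. Pi16-positive cells had a median of 5191 UMIs in SAH (1065 to 10257) and 4870 in sham (1202 to 10979), and summed to 302127 UMIs in SAH and 354059 in sham. Their median mitochondrial share was 3.86% in SAH and 3.93% in sham. The other fibroblasts were deeper in SAH, with a median of 6056 UMIs, than in sham, with 4541. Levels are given as CPM, the UMIs of a gene per 1000000 UMIs summed over a class of cells in a library, and 50 CPM in Pi16-positive cells stands for 15.1 UMIs in SAH and 17.7 in sham. Each 95% interval is exact and covers counting error only, not differences between cells, animals or libraries.

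The Pi16 count itself varied widely between cells. It had a median of 5 UMIs in SAH, reaching 48, and of 6 UMIs in sham, reaching 114. Exactly 1 Pi16 UMI, the least that the rule accepts, was found in 17 SAH cells and 17 sham cells, and 10 or more in 24 SAH cells and 23 sham cells. Just outside the rule, 3 SAH cells and 1 sham cell met every condition but had Tnfsf11 UMIs, and 27 SAH cells and 19 sham cells had Pecam1 UMIs. Among cells that met the other conditions, 1 SAH cell and no sham cell had only 3 to 5 UMIs of Dcn and Col3a1, and 3 SAH cells and 1 sham cell were left out with 1 or 2. Blood endothelial cells, here and below, had at least 2 Pecam1 UMIs and no UMI of Prox1, Dcn or Col3a1. In these cells, which should lack Pi16, 0.564% of SAH cells (median depth 4229 UMIs) and 0.286% of sham cells (median depth 4558.5) had a Pi16 UMI. Leaving out cells with Dcn or Col3a1 UMIs can make the shares with fibroblast genes in this class too low. Whether free RNA or doublets gave these UMIs was not tested.

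The other 5 markers of the cell type were not part of the rule and were carried by most of the cells. Igfbp6, Mfap5, Pcolce2, Efemp1 and Dpep1 together had a median of 26 UMIs per cell in SAH and 29.5 in sham. At least 3 of these UMIs were present in 53 of 57 SAH cells and 71 of 72 sham cells, and none in 4 SAH cells and 0 sham cells. Igfbp6, which encodes a binding protein for insulin-like growth factors, was detected in 89.5% of SAH cells and 88.9% of sham cells. Mfap5, a microfibril protein, was detected in 82.5% of SAH cells and 93.1% of sham cells. Since Pi16 and these markers are known to go together, the measured genes match the label for most of the cells. The limit of 3 UMIs is low, and SAH cells with 1 Pi16 UMI and 4 or 5 UMIs of the markers also passed it. How many other fibroblasts pass it was not computed. Of the 4 SAH cells without the markers, 3 are taken up again below.

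**Figure D1:**
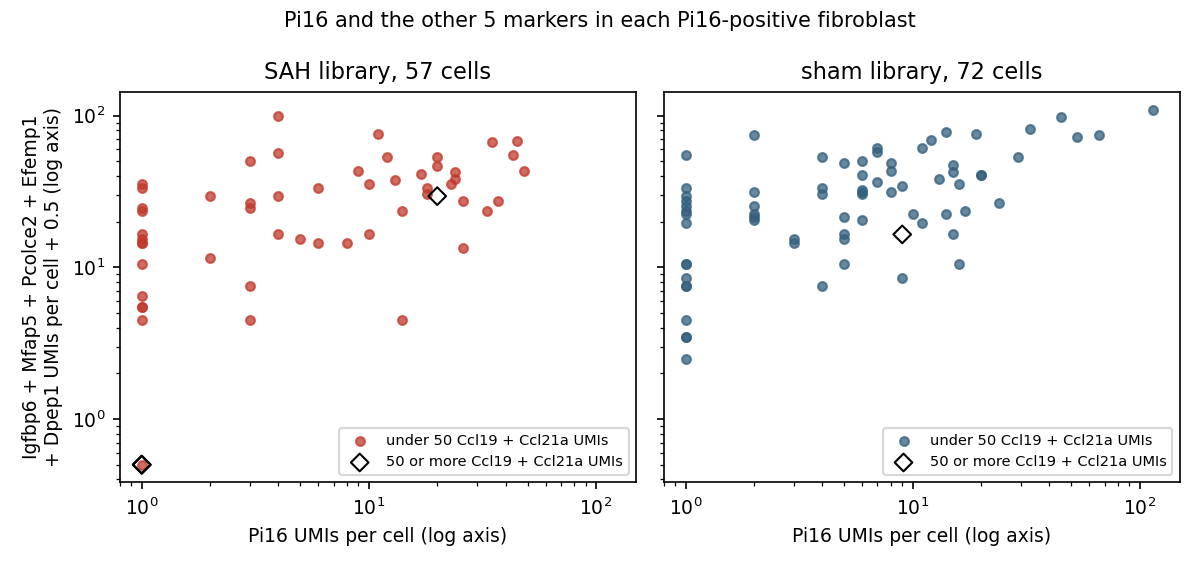
Pi16 UMIs per cell (x axis, logarithmic) against the summed UMIs per cell of Igfbp6, Mfap5, Pcolce2, Efemp1 and Dpep1 with 0.5 added (y axis, logarithmic), 1 point per Pi16-positive fibroblast, SAH library in the left panel and sham library in the right, with open diamonds for cells of 50 or more Ccl19 and Ccl21a UMIs. Of 57 SAH cells 53, and of 72 sham cells 71, hold at least 3 UMIs of the 5 markers, and 3 of the 4 SAH diamonds lie at the lower left, with 1 Pi16 UMI and none of the 5.

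Marker levels in the other fibroblasts were far lower in both libraries. Igfbp6 was at 1754 CPM in Pi16-positive cells against 59.5 CPM in other fibroblasts of SAH, and at 1627 against 92.6 CPM in sham. Pcolce2, an enhancer of collagen propeptide cleavage, was at 870 against 24.0 CPM in SAH and 1003 against 51.3 CPM in sham. Mfap5 was at 1211 against 62.3 CPM in SAH and 2370 against 121 CPM in sham. Efemp1, which encodes the elastic fibre protein fibulin-3, was at 685 against 31.2 CPM in SAH and 1271 against 79.4 CPM in sham. Dpep1, a membrane dipeptidase, differed least, at 731 against 163 CPM in SAH and 590 against 82.6 CPM in sham. These markers go with Pi16, which chose the cells, so the differences are a description.

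**Figure D2:**
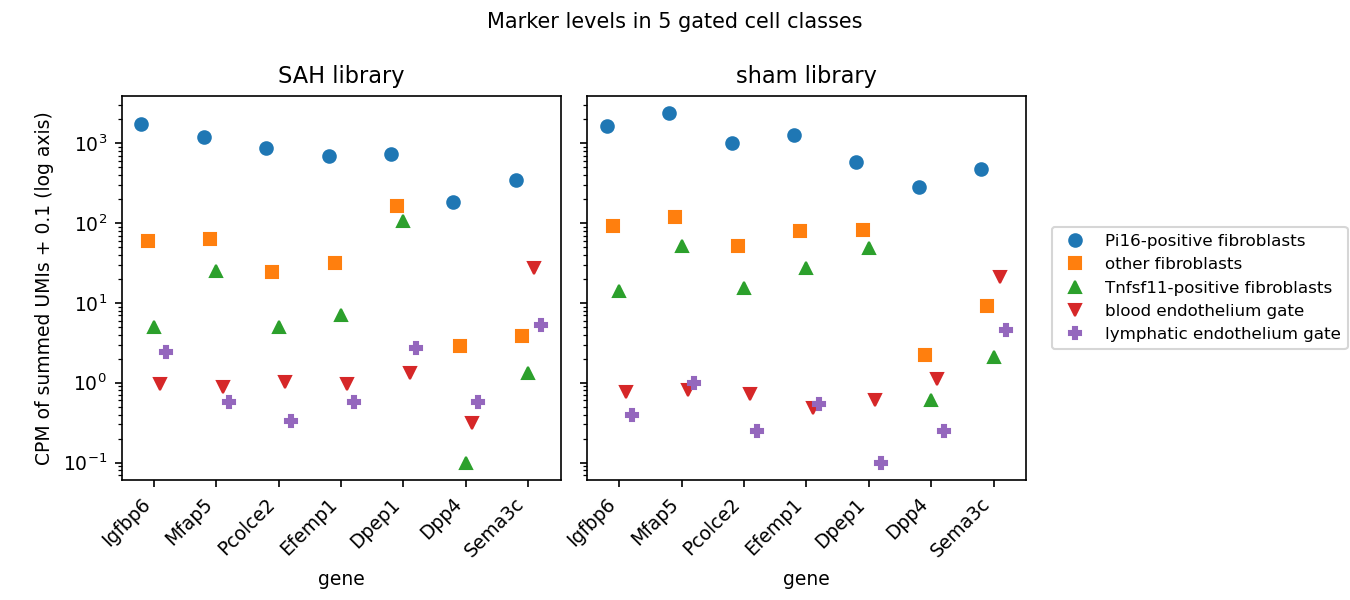
Level of 7 genes in CPM of summed UMIs with 0.1 added (logarithmic axis) in 5 gated classes of cells, SAH library in the left panel and sham library in the right, 1 symbol per class. The circles of the Pi16-positive fibroblasts stand above every other class for each gene, for Igfbp6 at 1754 CPM in SAH and 1627 CPM in sham against 59.5 and 92.6 CPM in the other fibroblasts.

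Marker levels also followed the Pi16 count within the selected cells. In SAH cells with 1, with 2 to 9 and with 10 or more Pi16 UMIs, Mfap5 was at 349, 1247 and 1662 CPM, and in sham cells at 1352, 2143 and 3095 CPM. Dpp4, a membrane peptidase that marks the same fibroblasts in several mouse tissues, was at 49.9, 161 and 271 CPM across these SAH groups and at 60.1, 264 and 408 CPM across the sham groups. Igfbp6 was at 873, 2427 and 1893 CPM across the SAH groups, highest in the middle one, and at 781, 1271 and 2408 CPM across the sham groups. The SAH group with 1 Pi16 UMI holds the 4 cells without Mfap5, Igfbp6 and the other markers, which lowers its levels. Of these, 3 are the cells rich in reticular genes described next, with 8072, 9725 and 8820 of the group's 80152 UMIs. They also belong to that group where Col1a1, Fbn1 and Cxcl13 are given by Pi16 count below. Levels of the group without them were not computed. The groups also differ in depth per cell, and no test was made across them.

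A few Pi16-positive cells carried the genes of T-zone reticular cells. In SAH, 4 cells had at least 50 UMIs of Ccl19 and Ccl21a together, with 422, 504, 380 and 315 UMIs of Ccl21a. Of these 4 cells, 3 had 1 Pi16 UMI and no UMI of the other 5 markers, and the remaining one had 20 Pi16 UMIs and 29 of the other markers. In sham, 1 cell passed the same limit, with 63 UMIs of Ccl21a, 9 of Pi16 and 16 of the other markers. None of the 5 was called a doublet by Scrublet, which marked 1 SAH and 0 sham Pi16-positive cells in all. The 4 SAH cells held 94.6% of the Ccl21a UMIs, 91.3% of the Ccl19 UMIs, 88.8% of the Clu UMIs and 97.8% of the Acta2 and of the Tagln UMIs of all 57 SAH cells. Below, each named SAH over sham ratio that moved by over 1.5 times without these 5 cells is given with and without them.

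Markers of other cell types were summed as a check. The T-zone reticular list came to 9334 CPM in SAH and 715 CPM in sham, with per-cell medians of 1154 CPM in SAH and 376 CPM in sham and highest cells of 81028 CPM in SAH and 17276 CPM in sham. Without the 5 cells it came to 1055 CPM in SAH and 453 CPM in sham. The list for Lepr- and Ptn-positive reticular cells came to 7494 CPM in SAH and 2957 CPM in sham, and to 8049 CPM in SAH and 2771 CPM in sham without the 5 cells. It holds Apod, Inmt and Gpx3, which are named below. Without the 5 cells Lepr itself was at 15.1 CPM in SAH and 43.0 CPM in sham. The marginal reticular list, which holds Cxcl13, came to 4634 CPM in SAH and 1378 CPM in sham, and to 5095 CPM in SAH and 1366 CPM in sham without the 5 cells. The follicular dendritic list, which holds Clu, came to 3005 CPM in SAH and 291 CPM in sham with 4 of its 7 genes at 0 in each, and to 595 CPM in SAH and 232 CPM in sham without the 5 cells. The sums of these reticular and follicular lists were thus higher in SAH with and without the cells, but few genes carried some of them. Without the 5 cells, Cxcl13 alone was at 4869 CPM in SAH, and Mfge8 and Clu at 317 and 264 CPM. Of the marginal list, Enpp2 (2.09-fold) and Madcam1 (5.25-fold, 4 UMIs in SAH) were then also higher. Vcam1 and Il6 were lower, at 0.563 and 0.375 of sham, with intervals that include 1. The mural list, for pericytes and smooth muscle, came to 821 CPM in SAH and 251 CPM in sham, with 2 of its 12 genes at 0 in each, and without the 5 cells it was lower in SAH, at 181 CPM in SAH and 215 CPM in sham. The blood endothelial list came to 381 CPM in SAH and 189 CPM in sham, and the lymphatic endothelial list, which holds Ccl21a, to 5895 CPM in SAH and 384 CPM in sham, with 580 CPM in SAH and 209 CPM in sham without the 5 cells. The 6 T and NK cell markers in the files were all at 0 in both libraries, and myeloid markers came to 6.62 CPM in SAH, with 12 of 14 at 0, and 0 CPM in sham. Salivary gland genes, from the tissue next to these nodes, came to 394 CPM in SAH and 155 CPM in sham. The part of these markers in the results below was not tested, beyond the values without the 5 cells.

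Against the other fibroblasts, Pi16-positive cells had high levels of genes such as Pcsk6, Dpp4, Sema3c and Ackr3 and low levels of genes such as Igfbp2, Ccl2 and Csf2rb. Among 2907 genes of at least 50 CPM in one class, 413 (14.2%) were at least 1.5-fold higher and 330 (11.4%) at least 1.5-fold lower in Pi16-positive cells in both libraries. The genes named next are the extremes of that contrast and are a description, since Pi16 chose the cells. Pcsk6, a proprotein convertase, was at 195 CPM against 0.874 CPM in other fibroblasts of SAH and at 367 against 1.97 CPM in sham. Dpp4 was at 185 against 2.75 CPM in SAH (67.5-fold, 40.6 to 116) and 282 against 2.15 CPM in sham (132-fold, 72.1 to 263). Sema3c, a secreted semaphorin, was at 351 against 3.74 CPM in SAH and 480 against 8.94 CPM in sham. Ackr3, a scavenging receptor for Cxcl12, was at 513 against 12.9 CPM in SAH and 1022 against 24.7 CPM in sham.

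Ace, Edn1, Ptgis and Nox4 were also among the 24 highest. Ace, the angiotensin-converting enzyme, was at 659 against 21.7 CPM in SAH and 466 against 10.4 CPM in sham. Edn1, which encodes endothelin-1, was at 79.4 against 1.62 CPM in SAH and 84.7 against 2.32 CPM in sham. Ptgis, prostacyclin synthase, was at 72.8 against 1.25 CPM in SAH and 70.6 against 2.15 CPM in sham. Nox4, an NADPH oxidase, was at 82.7 against 0.998 CPM in SAH and 53.7 against 2.68 CPM in sham. The remaining genes among the 24 highest, besides Pi16, were Opcml, Smpd3, Efhd1, Fndc1, Pla1a, Adgrd1, Lrrn4cl, Creb5, Sbsn, Ntn1, Arl4d, Nova1, Anxa3, Ccl8 and Emilin2. Their folds over other fibroblasts ran from 19.8 (Emilin2) to 87.7 (Arl4d) in SAH and from 20.2 (Emilin2) to 140 (Opcml) in sham.

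The 12 lowest genes included Igfbp2, Ccl2, Cxcl10 and Csf2rb. Igfbp2, a binding protein for insulin-like growth factors, had no UMI in Pi16-positive cells of either library, against 54.9 CPM in SAH and 93.7 CPM in sham other fibroblasts, which allows at most 0.181 and 0.0905 of those levels. The monocyte chemokine Ccl2 was at 13.2 against 238 CPM in SAH and 16.9 against 730 CPM in sham. Cxcl10, a ligand of the chemokine receptor Cxcr3, was at 33.1 against 279 CPM in SAH and 8.47 against 257 CPM in sham. Csf2rb, the shared chain of the IL-3, IL-5 and GM-CSF receptors, was at 62.9 against 526 CPM in SAH and 16.9 against 322 CPM in sham. Npy1r, Tifa, Spon1, Ucp2, Gucy1a3, Synpo2, S1pr3 and Nos1ap were the other 8 of the 12 lowest, at 0.0441 (Ucp2) to 0.124 (S1pr3) of the other fibroblasts' level in SAH and 0.0468 (S1pr3) to 0.114 (Synpo2) in sham.

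Gene lists were counted over 8374 genes of at least 10 CPM in 1 of the 2 classes, of which 11.2% were at least 1.5-fold higher in Pi16-positive cells in both libraries. The median log2 difference from other fibroblasts over all these genes was 0.04 in SAH and 0.01 in sham. Of 22 measured genes listed for universal fibroblasts, 21 were higher, with a list median of 3.41 in SAH and 3.29 in sham. Elastic fibre and microfibril genes were higher for 12 of 21, with medians of 1.37 and 1.43, and fibrillar collagen genes for 6 of 12, with medians of 0.56 in SAH and 1.63 in sham. Chemokine and cytokine genes had medians of -1.76 in SAH and -2.63 in sham, with 2 of 22 higher. NF-kB target genes had medians of -1.21 in SAH and -1.43 in sham, with 1 of 22 higher.

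Pi16-positive cells were 57 of 1631 in SAH (3.49%, 95% interval 2.66 to 4.50) and 72 of 1532 in sham (4.70%, 3.70 to 5.88), and the intervals overlapped. With every cell thinned to 2000 UMIs and gated again, the shares were 46 of 1986 in SAH (2.32%, 1.70 to 3.08) and 64 of 1669 in sham (3.83%, 2.97 to 4.87). The thinned denominators are larger because thinning also removes single Pecam1 and Prox1 UMIs. They grew more in SAH, from 1631 to 1986, than in sham, from 1532 to 1669. The thinned shares are thus over another set of cells and are not corrected for depth alone. Fewer of these cells in the node and a lower recovery of them cannot be told apart, and for a single gene the same holds for fewer cells with it and less RNA per cell.

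Within Pi16-positive cells, 11 of 12 fibrillar collagen, 10 of 20 elastic fibre and 15 of 25 immediate early genes were at least 1.5-fold lower in SAH, and 13 of 26 interferon-stimulated and 10 of 23 redox and iron genes were at least 1.5-fold higher. Of 3306 genes at 50 CPM or more in the higher library, 506 (15.3%) were at least 1.5-fold higher and 744 (22.5%) at least 1.5-fold lower in SAH. The interval of the ratio lay above 1 for 290 of the higher and below 1 for 407 of the lower genes. The median gene was at 0.928 of its sham level, a log2 change of -0.11, and scaling by the median ratio instead gave 638 higher and 579 lower. For genes of at least 10 CPM, on which the lists below are counted, 23.9% of 8742 were at least 1.5-fold higher and 24.6% lower. In the other fibroblasts the same genes gave 5.91% higher and 7.81% lower, from far more UMIs per gene, so the shares of the classes are not comparable with each other.

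**Figure D3:**
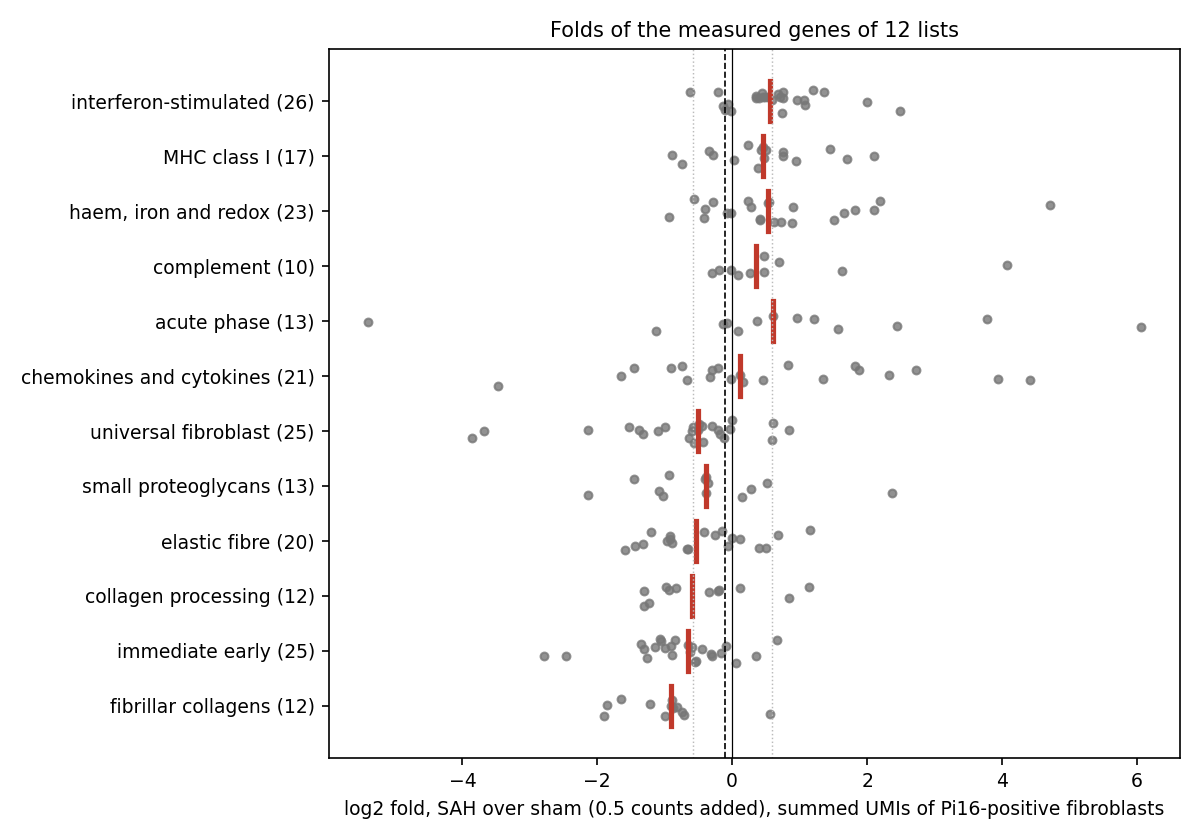
Log2 fold of SAH over sham with 0.5 counts added (x axis) of each measured gene of 12 lists in Pi16-positive fibroblasts, with the number of genes in brackets, the list median as a red bar, the median of all tested genes (-0.11) as a dashed line and 1.5-fold either way as dotted lines. The fibrillar collagen median stands at -0.90, the immediate early median at -0.65 and the interferon-stimulated median at 0.56.

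Fibrillar collagen genes were lower in SAH Pi16-positive cells. Of 12 measured fibrillar and associated collagen genes, 11 were at least 1.5-fold lower and 0 higher, with a median log2 difference of -0.90, and in other fibroblasts 5 were lower and 0 higher, with a median of -0.36. The background shares are 24.6% lower in Pi16-positive cells and 7.81% in other fibroblasts. Col1a1, which encodes the main chain of type I collagen, was at 1774 CPM in SAH and 6629 CPM in sham, 0.268 of the sham level (0.243 to 0.294). It had a median of 5 UMIs per cell in SAH, up to 62, and of 21.5 in sham, up to 157. Col3a1, which also served to gate the cells, was at 2989 CPM in SAH and 9380 CPM in sham (0.319, 0.296 to 0.343). Col6a3 was at 202 CPM in SAH and 734 CPM in sham (0.275, 0.205 to 0.365), and Col5a1 at 195 CPM in SAH and 458 CPM in sham (0.427, 0.311 to 0.578). In other fibroblasts the ratios were 0.526 for Col1a1, 0.596 for Col3a1, 0.663 for Col6a3 and 0.931 for Col5a1, and whether the 2 classes differ was not tested.

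The lower Col1a1 level was not limited to cells with few Pi16 UMIs. It was at 1397, 1689 and 2022 CPM in SAH cells with 1, 2 to 9 and 10 or more Pi16 UMIs, and at 8010, 6401 and 6212 CPM in the matching sham cells. Without the 5 reticular-gene-rich cells it was at 1896 CPM in SAH and 6696 CPM in sham, 0.283 of the sham level. Of the 12 genes for collagen processing 6 were lower and 2 higher, against background shares of 24.6% and 23.9%. Serpinh1, the collagen chaperone Hsp47, was at 589 CPM in SAH and 1457 CPM in sham (0.404, 0.339 to 0.480), and Bmp1, which cleaves procollagen, at 116 CPM in SAH and 274 CPM in sham (0.423). P4ha2, a collagen prolyl hydroxylase, was at 29.8 CPM in SAH and 76.3 CPM in sham, 0.391 of sham. Plod3, a lysyl hydroxylase, was higher, at 69.5 CPM in SAH and 31.1 CPM in sham (2.24-fold, 1.03 to 5.14).

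Elastic fibre genes were lower more often than higher. Of 20 measured, 10 were lower and 2 higher in Pi16-positive cells, against background shares of 24.6% and 23.9%. The median log2 difference was -0.53. In other fibroblasts 6 were lower and 0 higher, against 7.81% and 5.91%. Fbn1, which encodes fibrillin-1, the core of microfibrils, was at 549 CPM in SAH and 1381 CPM in sham (0.398, 0.332 to 0.475). It was lower in each Pi16 stratum, at 162, 483 and 794 CPM in SAH and 541, 1277 and 1892 CPM in sham. Eln, tropoelastin, was at 116 CPM in SAH and 316 CPM in sham (0.366, 0.243 to 0.540), and Loxl1, an elastin cross-linking enzyme, at 374 CPM in SAH and 864 CPM in sham (0.433, 0.346 to 0.539). Mfap2 was at 62.9 CPM in SAH and 192 CPM in sham (0.327, 0.186 to 0.551). Among the cell type's own markers, Mfap5 and Efemp1 were lower in SAH, at 0.511 (0.451 to 0.579) and 0.539 (0.455 to 0.637) of sham. Igfbp6 was at 1.08 (0.956 to 1.22) and Pcolce2 at 0.868 (0.737 to 1.02) of sham, with intervals that include 1.

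In other matrix lists more genes were lower than higher, against background shares of 24.6% lower and 23.9% higher. Of 16 basement membrane genes, 6 were lower and 1 higher. The higher one was Col4a2, a chain of type IV collagen, at 182 CPM in SAH and 102 CPM in sham (1.79-fold, 1.16 to 2.81), and 2.04-fold higher in other fibroblasts. Col4a1, its partner chain, was at 530 CPM in SAH and 463 CPM in sham (1.14, 0.914 to 1.43). Sparc, a collagen-binding matrix protein, was at 4041 CPM in SAH and 8552 CPM in sham (0.473, 0.442 to 0.505), against a ratio of 1.06 in other fibroblasts. Proteoglycan and hyaluronan genes were lower for 5 of 13 and higher for 1. That gene was Prg4, lubricin, at 298 CPM in SAH and 56.5 CPM in sham (5.27-fold, 3.22 to 9.04), in 25 of 57 SAH cells and 5 of 72 sham cells. Without the 5 reticular-gene-rich cells its ratio was 5.78, and in other fibroblasts it was 21.1. Has1, a hyaluronan synthase, was at 23.2 CPM in SAH and 107 CPM in sham (0.216, 0.0813 to 0.489). Universal fibroblast genes as a list were lower for 11 of 25 and higher for 3, while Dcn, decorin, was higher at 17129 CPM in SAH and 12006 CPM in sham, 1.43-fold.

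Immediate early and growth response genes were more often lower than higher in SAH. Of 25 measured, 15 were at least 1.5-fold lower and 1 higher, against background shares of 24.6% and 23.9%. The median log2 difference was -0.65. In other fibroblasts 10 were lower and 1 higher, against 7.81% and 5.91%, with a median of -0.54. Egr1, a growth-response transcription factor, was at 1397 CPM in SAH and 2624 CPM in sham (0.532, 0.473 to 0.598). Dusp1, a MAP kinase phosphatase, was at 635 CPM in SAH and 1327 CPM in sham (0.479, 0.403 to 0.567), and Nr4a1 at 146 CPM in SAH and 364 CPM in sham (0.400, 0.277 to 0.567). Cyr61, a matricellular protein induced by stretch and growth factors, was at 106 CPM in SAH and 590 CPM in sham (0.179, 0.120 to 0.261), with a median of 0 UMIs per cell in SAH and 1 in sham. Jun was the gene that was higher, at 1744 CPM in SAH and 1104 CPM in sham (1.58, 1.38 to 1.80). Fos itself was at 2148 CPM in SAH and 2409 CPM in sham (0.892, 0.804 to 0.989).

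Of 26 measured interferon-stimulated genes, 13 passed 1.5-fold upwards in Pi16-positive cells of SAH, and 25 did so in other fibroblasts. In Pi16-positive cells 1 was lower, with a median log2 difference of 0.56, against background shares of 23.9% higher and 24.6% lower. In other fibroblasts 0 were lower, with a median of 0.99, against 5.91% and 7.81%. Irf7, which amplifies interferon transcription, was at 185 CPM in SAH and 45.2 CPM in sham (4.10-fold, 2.32 to 7.66), in 22 SAH cells and 13 sham cells. After thinning to 2000 UMIs it was detected in 19.2% of SAH and 6.35% of sham Pi16-positive cells. Blood endothelium had 499 CPM in SAH and 102 CPM in sham, and the part of free RNA in these counts was not tested. Xaf1 was at 69.5 CPM in SAH and 11.3 CPM in sham (6.15-fold, 2.08 to 24.7), from 17 cells in SAH and 4 in sham. Zbp1, a nucleic acid sensor, was at 96.0 CPM in SAH and 36.7 CPM in sham (2.61-fold, 1.32 to 5.48), and Parp14 at 72.8 CPM in SAH and 31.1 CPM in sham (2.34-fold, 1.09 to 5.35). Ifi27l2a, with many more UMIs, was at 1625 CPM in SAH and 991 CPM in sham, 1.64-fold (1.43 to 1.89), against 5.26-fold in other fibroblasts. Ifitm3 was at 3912 CPM in SAH and 2316 CPM in sham (1.69-fold, 1.54 to 1.85), and Trim30a was the lower one, at 0.635 of sham.

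The interferon-stimulated response element is the DNA motif through which interferon-activated factors reach such genes. Its core, taken as GAAANNGAAA or TTTCNNTTTC on the other strand, was searched in the 250 bases before each gene start, in RefSeq promoters of build GRCm38.p6. Of 32851 promoters, 978 (2.98%) held a match. Of the 26 measured interferon-stimulated genes 19 had a promoter in the table, and 7 of these held the letters. Overlapping matches were counted separately. The 4 below are shown because they belong to well-known antiviral genes and hold at least 2 matches each. Each is the 180 bases before the gene start, read on the strand of the gene, with the matched letters in capitals.

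Ifit3 promoter: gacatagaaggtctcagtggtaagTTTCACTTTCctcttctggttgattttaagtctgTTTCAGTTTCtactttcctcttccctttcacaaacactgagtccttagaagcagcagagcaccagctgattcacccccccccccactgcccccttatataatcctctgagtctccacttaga
Isg15 promoter: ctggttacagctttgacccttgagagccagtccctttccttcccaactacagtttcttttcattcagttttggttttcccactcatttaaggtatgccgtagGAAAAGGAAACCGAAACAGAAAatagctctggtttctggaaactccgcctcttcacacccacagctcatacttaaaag
Ifit1 promoter: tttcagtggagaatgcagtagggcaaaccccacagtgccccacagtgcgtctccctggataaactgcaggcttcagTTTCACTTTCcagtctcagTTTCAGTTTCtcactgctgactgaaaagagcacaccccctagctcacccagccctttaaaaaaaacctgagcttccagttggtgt
Bst2 promoter: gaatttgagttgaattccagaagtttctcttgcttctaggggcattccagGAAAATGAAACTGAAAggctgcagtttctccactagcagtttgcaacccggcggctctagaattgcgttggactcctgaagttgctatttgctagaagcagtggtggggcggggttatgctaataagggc

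They lie at chr19:34583349-34583528 on the plus strand for Ifit3, chr4:156200819-156200998 on the minus strand for Isg15, chr19:34640709-34640888 on the plus strand for Ifit1 and chr8:71537473-71537652 on the minus strand for Bst2. Ifit3 and Ifit1 hold 2 separate matches each, Bst2 holds 2 that overlap and Isg15 holds 3 that overlap. In Pi16-positive cells Ifit3, an antiviral RNA-binding partner, was at 66.2 CPM in SAH and 31.1 CPM in sham (2.13-fold, 0.973 to 4.92), but its log2 difference was -0.01 after thinning to 2000 UMIs. Isg15, a ubiquitin-like modifier, was at 89.4 CPM in SAH and 65.0 CPM in sham (1.38-fold, 0.760 to 2.51), Ifit1 at 62.9 CPM in SAH and 73.4 CPM in sham (0.856, 0.448 to 1.61), and Bst2, tetherin, at 400 CPM in SAH and 314 CPM in sham (1.28-fold, 0.979 to 1.67). All 4 intervals include 1, while the same genes were 2.30-, 2.41-, 2.03- and 1.90-fold higher in SAH in the other fibroblasts. Of the 7 genes with the letters 2, Ifit3 being 1 of them, were at least 1.5-fold higher in Pi16-positive cells before thinning, and of the 12 without them 5 were, Irf7 and Xaf1 among these. The match of letters is a description and says nothing about binding.

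Acute phase genes were mixed in direction. Of 13 measured, 7 were higher and 2 lower in SAH, against background shares of 23.9% and 24.6%. Saa1, serum amyloid A1, had 28 UMIs in 9 SAH cells and 0 in sham, at least 10.9-fold higher against a floor of 3 counts over the sham class, and was 45.4-fold higher in other fibroblasts. Saa1 and its close copy Saa2 can share reads. Lcn2, an iron-siderophore binding protein, was at 159 CPM in SAH and 28.2 CPM in sham (5.63-fold, 2.81 to 12.5). Serpina3n, a secreted protease inhibitor that the list does not hold but that ranks among the 12 highest genes, was at 1417 CPM in SAH and 189 CPM in sham (7.49-fold, 5.78 to 9.84). It was found in 54 of 57 SAH cells and 25 of 72 sham cells, with a median of 5 UMIs per cell in SAH and 0 in sham and highest cells of 49 and 11 UMIs. Without the 5 reticular-gene-rich cells it was at 6.57-fold, and in other fibroblasts at 2.66-fold. Ptx3, long pentraxin, ran the other way, with 2 UMIs in SAH (2 cells) and 123 in sham (20 cells, at most 32 in one), 0.0191 of the sham level (0.00228 to 0.0703), and 0.135 in other fibroblasts.

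**Figure D4:**
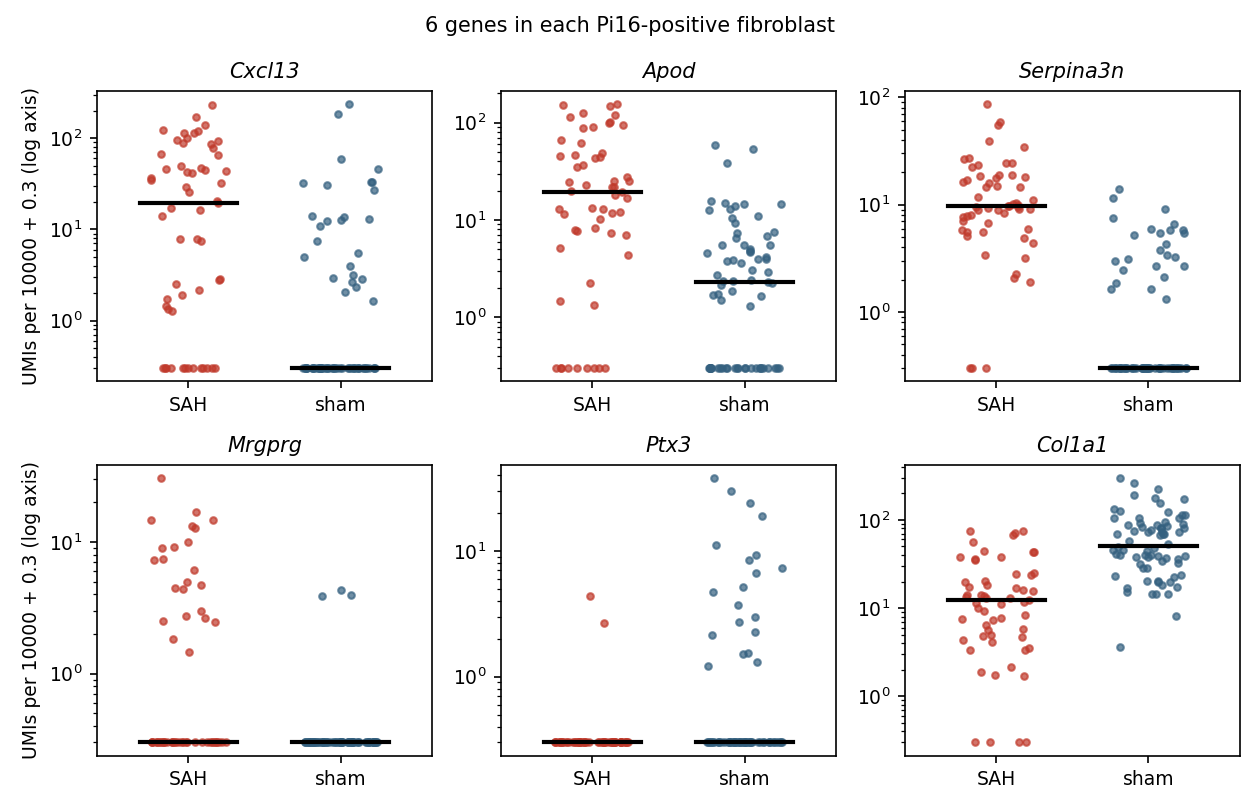
UMIs per 10000 UMIs of the cell with 0.3 added (logarithmic axis) of 6 genes, 1 point per Pi16-positive fibroblast, SAH left of sham in each panel, with the median over cells as a bar. Serpina3n has UMIs in 54 of 57 SAH cells and 25 of 72 sham cells, Ptx3 in 2 SAH cells and 20 sham cells, and the cells of both libraries overlap for every gene shown.

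Chemokine genes were higher for 8 of 21 and lower for 6, against background shares of 23.9% and 24.6%. Cxcl13, the B cell chemokine, was at 4336 CPM in SAH and 1172 CPM in sham (3.70-fold, 3.31 to 4.14), with 44 of 57 SAH cells and 26 of 72 sham cells positive, a median of 9 UMIs in SAH and 0 in sham, and highest cells of 160 and 170. After thinning it was found in 73.1% of SAH and 30.2% of sham Pi16-positive cells. In blood endothelial cells, gated to lack Dcn and Col3a1 UMIs, it was found in 8.02% of SAH and 3.08% of sham cells. The SAH cells were higher in each Pi16 stratum, at 2034, 5054 and 5224 CPM in SAH and 586, 953 and 1684 CPM in sham. The ratio was 4.11 (3.68 to 4.60) without the reticular-gene-rich cells and 3.34 in other fibroblasts. Tnfsf11-positive fibroblasts had 7203 CPM in SAH and 4399 CPM in sham. Cxcl9 was at 76.1 CPM in SAH and 14.1 CPM in sham (5.39-fold, 2.00 to 18.2). Ccl7, a monocyte chemokine, was at 189 CPM in SAH and 73.4 CPM in sham (2.57-fold, 1.59 to 4.26), but at 0.321 of sham in other fibroblasts, and 1 SAH cell held 40 of its UMIs.

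Ccl21a, Ccl19 and Clu, the other chemokine and secreted genes among the 12 highest, rested on the reticular-gene-rich cells. Ccl21a was at 5673 CPM in SAH and 265 CPM in sham (21.4-fold, 17.4 to 26.6) and without those 5 cells at 350 CPM in SAH and 88.9 CPM in sham (3.94-fold, 2.60 to 6.12). Ccl19 was at 1066 CPM in SAH and 67.8 CPM in sham (15.7-fold, 10.4 to 24.9) and without them at 106 CPM in SAH and 43.0 CPM in sham (2.45-fold, 1.27 to 4.94). Clu, clusterin, was at 2062 CPM in SAH and 121 CPM in sham (17.0-fold, 12.5 to 23.7) and without them at 264 CPM in SAH and 74.6 CPM in sham (3.54-fold, 2.23 to 5.78). Ccl21a and Ccl19 have near-identical copies, so the counting of either is uncertain. In other fibroblasts the ratios were 1.53 for Ccl21a, 1.35 for Ccl19 and 1.68 for Clu. Bst1, with 19 UMIs in SAH and 1 in sham, had 1 in each without the cells. Among the T-zone reticular list 9 of 11 genes were higher and 0 lower with these cells, against background shares of 23.9% and 24.6%. Without them 6 were higher and 2 lower. The list's median log2 difference was 2.32 with these cells and 0.60 without.

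Mrgprg (chr7:143763710-143766993), a receptor of the Mas-related family, was detected in many SAH cells and had no UMI in the other fibroblasts. It had 101 UMIs in 23 of 57 SAH cells and 6 UMIs in 3 of 72 sham cells, at 334 CPM in SAH and 16.9 CPM in sham (19.7-fold, 8.75 to 55.0). The highest cell held 24 UMIs in SAH and 3 in sham, and the median cell had none in either library. After thinning it was in 32.7% (20.3 to 47.1) of SAH cells and 4.76% (0.993 to 13.3) of sham cells. None of the other fibroblasts had a UMI of it, 0 of 1267 in SAH and 0 of 1138 in sham, which allows shares of cells with a UMI of up to 0.237% in SAH and 0.264% in sham. These limits cover detected UMIs, not cells that express the gene. In blood endothelium 0.0705% of SAH cells had a UMI, and 0 of 4194 sham cells, which allows up to 0.0715%. Without the reticular-gene-rich cells the ratio was 22.1 (9.81 to 61.7). Ifitm1 was at 549 CPM in SAH and 50.8 CPM in sham (10.8-fold, 6.63 to 18.7), and without those cells at 260 CPM in SAH and 40.2 CPM in sham (6.47-fold, 3.61 to 12.5), against 1.43-fold in other fibroblasts.

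Apod and Inmt stand on the marker list for Lepr- and Ptn-positive reticular cells and were higher in SAH in Pi16-positive cells. Apod, a lipid-binding apolipoprotein, was at 3449 CPM in SAH and 571 CPM in sham (6.05-fold, 5.19 to 7.06), with a median of 8 UMIs per cell in SAH and 1 in sham. In other fibroblasts it was at 437 CPM in SAH and 106 CPM in sham, 4.12-fold, and so below the Pi16-positive cells in each library. Inmt was at 1420 CPM in SAH and 455 CPM in sham (3.12-fold, 2.60 to 3.77), against 1.15-fold in other fibroblasts. Of the 9 measured genes of that marker list 4 were higher and 2 lower, against background shares of 23.9% and 24.6%. The list's median log2 difference was 0.12. Without the 5 reticular-gene-rich cells 5 were higher and 2 lower, with a median of 0.64. Lepr was then one of the lower genes, with 4 UMIs in SAH and 15 in sham (0.350, 0.0846 to 1.10). Nr4a1 was the other, at 0.448 of sham. Ptn had 12 UMIs in SAH and 10 in sham (1.58-fold, 0.624 to 4.07). The intervals of Lepr and Ptn include 1.

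Slc7a11, Thbs4, Stmn2 and Ly6k, also among the 12 highest, had few UMIs. Slc7a11, the cystine transporter, had 33 UMIs in 6 SAH cells and 1 UMI in sham (38.7-fold, 6.47 to 1573), but 2 in SAH and 1 in sham without the reticular-gene-rich cells. Thbs4 had 18 UMIs in 4 SAH cells and 1 in sham (21.1-fold, 3.33 to 879), and 7 in SAH and 1 in sham (9.19-fold, 1.18 to 414) without those cells. Stmn2 had 32 in 5 SAH cells and 3 in sham (12.5-fold, 3.91 to 63.8), and 4 in SAH and 3 in sham without them, 1.75-fold with an interval that includes 1. Ly6k had 18 UMIs in 5 SAH cells and 0 in sham, at least 7.03-fold higher, and 3 in SAH and 0 in sham without those cells. Saa3, Flt1 and Tpm2 were over 10 times higher in another class and so were set apart as possible free RNA, with 17, 17 and 16 UMIs in SAH and 1, 3 and 4 in sham. Without the 5 cells Tpm2 had 4 UMIs in SAH and 3 in sham, and Saa3 17 in SAH and 0 in sham.

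Genes among the 12 lowest besides Ptx3 and Cyr61 also had few UMIs. Tnfrsf12a, the receptor for TWEAK, and Dact2 each had 1 UMI in SAH and 22 in sham (0.0533, 0.00129 to 0.330). Rab38 had 2 UMIs in SAH and 24 in sham (0.0977, 0.0112 to 0.393) and Rorb 1 in SAH and 18 in sham (0.0651, 0.00156 to 0.412). Egr2 had 3 in SAH and 28 in sham (0.126, 0.0244 to 0.406), Azin1 had 3 in SAH and 25 in sham, and Nrep had 3 in SAH and 23 in sham. Ptgs2, inducible cyclooxygenase, had 6 UMIs in SAH and 38 in sham (0.185, 0.0639 to 0.441), Krtdap 6 in SAH and 37 in sham, and Spry1, a feedback inhibitor of receptor kinases, 5 in SAH and 31 in sham (0.189, 0.0574 to 0.490).

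Redox and iron genes were higher for 10 of 23 and lower for 2, against background shares of 23.9% and 24.6%. Their median log2 difference was 0.53. Hmox1, haem oxygenase 1, was at 69.5 CPM in SAH and 14.1 CPM in sham (4.92-fold, 1.81 to 16.7), against 1.00 in other fibroblasts. It had few UMIs, found in 10 of 57 SAH cells (at most 6 in one) and 5 of 72 sham cells (at most 1). Without the reticular-gene-rich cells it had 21 UMIs in SAH and 5 in sham, 5.52-fold. Gpx3, an extracellular glutathione peroxidase, was at 1142 CPM in SAH and 322 CPM in sham (3.55-fold, 2.86 to 4.42), and 2.31-fold higher in other fibroblasts. It is also on the marker list for Lepr- and Ptn-positive reticular cells. Gstp1 was at 109 CPM in SAH and 33.9 CPM in sham (3.22-fold, 1.62 to 6.85). Fth1, ferritin heavy chain, differed little, at 10870 CPM in SAH and 8956 CPM in sham (1.21, 1.16 to 1.27).

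Antigen presentation and complement genes were more often higher than lower. Of 17 class I pathway genes 6 were higher and 2 lower. H2-T23 was at 480 CPM in SAH and 147 CPM in sham (3.27-fold, 2.37 to 4.58), and H2-D1 at 1718 CPM in SAH and 893 CPM in sham (1.92-fold, 1.67 to 2.22), while H2-K1 was at 1393 CPM in SAH and 1771 CPM in sham (0.787, 0.694 to 0.892). Of 10 complement genes 3 were higher and 0 lower. C3, the central complement component, was at 6203 CPM in SAH and 4479 CPM in sham (1.38, 1.29 to 1.48).

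The remaining lists differed in their balance, against background shares of 23.9% higher and 24.6% lower. NF-kB targets were higher for 5 and lower for 5 of 20, and higher for 3 and lower for 8 without the 5 reticular-gene-rich cells. Respiratory chain genes were higher for 3 and lower for 3 of 20, and unfolded protein response genes lower for 2 and higher for 0 of 14. Cell cycle genes were measured for 8 of 18, with 1 higher and 2 lower. Growth factors were lower for 7 of 16 and higher for 2, Wnt modulators lower for 5 of 11 and higher for 1, and BMP and TGF-beta genes lower for 8 of 20 and higher for 3, with Gdf10 at 79.4 CPM in SAH and 381 CPM in sham (0.208, 0.129 to 0.323) and Fstl1 at 834 CPM in SAH and 2005 CPM in sham, 0.416 of sham.

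**Figure D5:**
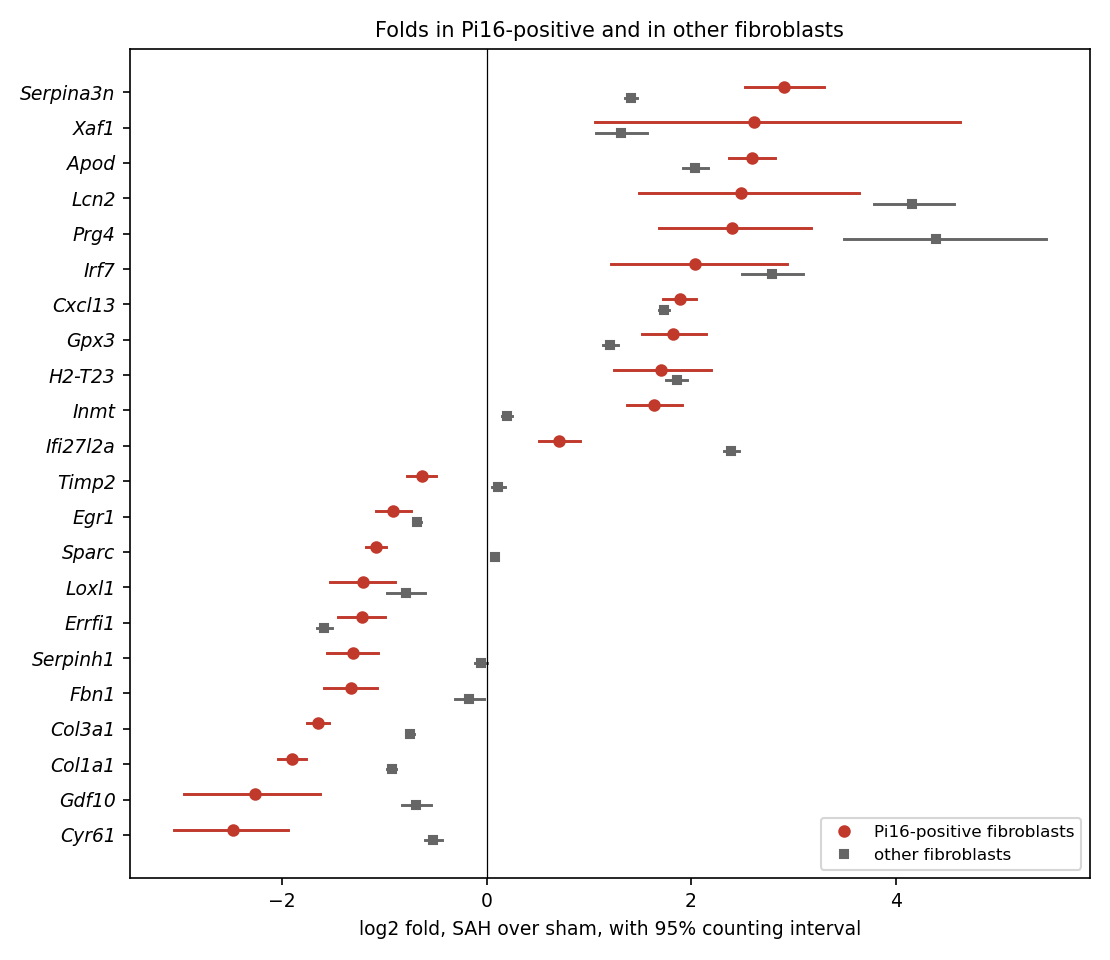
Log2 fold of SAH over sham (x axis) of 22 genes, picked for the plot with their values known, in Pi16-positive fibroblasts (red circles, above) and in other fibroblasts (grey squares), with lines for the 95% counting interval. Ifi27l2a stands at 1.64-fold in Pi16-positive cells and 5.26-fold in other fibroblasts, and Sparc at 0.473 and 1.06 of the sham level.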

How the data were processed

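Cells of both libraries were run on the 10x Chromium platform, per the labels' protocols. The submitters' processing notes name Cell Ranger 5.0, STAR and Seurat 3.0.2 and build mm10, and the file headers name software version 5.0.0. Whether intron reads were counted is not given in the sources used here. The authors deposited a matrix of whole UMI counts, not normalized, for 27998 genes in each library. No normalization by the authors was used.

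The rule for Pi16-positive cells was applied to raw counts, and their members, the gene lists and the comparisons were chosen with earlier results of these data known. Counts were summed over the cells of a class in each library, with genes sharing a symbol added together, and scaled to CPM. The ratio of SAH over sham CPM has an exact conditional binomial 95% interval, and shares have exact Clopper-Pearson intervals. PCR copies are collapsed by UMI, and intervals and floors (3 counts) cover counting error only. With 1 library per condition no p-value was computed. Genes at 50 CPM or more in the higher library were compared at 1.5-fold, and lists were counted over genes at 10 CPM or more, with 0.5 counts added for list medians and ranks. Setting genes at 0 in 1 library to the floor changed the medians of 4 of 45 lists, none of them printed here.

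Named genes are the 12 highest and 12 lowest ratios with the same sign in cells of 1 and of 2 or more Pi16 UMIs. Signs were taken with 0.5 counts added, so a gene without UMIs in cells of 1 Pi16 UMI counted as lower there. Dact2 passed in this way, at -0.27 (log2), so the condition was no check for it. Krtdap stood at the same value. Left out were genes for ribosomal proteins, antigen receptors, haemoglobins or the mitochondrial genome, unnamed gene models, Xist and genes of the Y chromosome. Named apart were 3 genes over 10 times higher in another class. To these come the 24 highest and 12 lowest genes against other fibroblasts, the 6 markers and up to 4 examples per list by size of ratio. Fos, Egr1, Jun, Ifi27l2a, Ifitm3, Trim30a, Isg15, Ifit1, Ifit3, Bst2, Fth1, H2-K1, Col4a1 and Dcn fall outside this rule and were chosen after their values were seen. Scrublet (scanpy 1.11.5, expected rate 0.1) marked 6.364% of SAH and 5.225% of sham barcodes, which were kept. For thinned values each cell was drawn down to 2000 UMIs, and 5 SAH and 9 sham Pi16-positive cells were too shallow. Python 3.11.15, numpy 2.4.6, scipy 1.17.1, pandas 2.3.3 and matplotlib 3.10.9 were used, and the functions were tested on simulated counts.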

Additional observations from a re-analysis of the deposited data

How the results depend on the processing

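No paired analysis was possible because each condition is 1 library, so no replicate could be left out either. Of the counts of genes past 1.5-fold, the higher ones came to 809 after thinning to 2000 UMIs, 2088 with a filter of 10 CPM and 95 with a filter of 200 CPM, and the lower ones to 2154 and 152 with these filters. Both stayed within 1.5 times of 506 and 744 under the other alternatives. The share of Pi16-positive cells was 2.45% in SAH and 3.59% in sham with at least 2 Pi16 UMIs. It was 2.32% in SAH after thinning, over the larger thinned denominator. It was 8.45% in SAH and 11.1% in sham with cells holding Ptprc, Cdh5 or Rgs5 left out. The share was always lower in SAH. That filter kept 42 SAH and 62 sham Pi16-positive cells, so the share rose because other gated fibroblasts were removed. Rgs5 was at 542 CPM in SAH and 659 CPM in sham in other fibroblasts, against 116 and 31.1 CPM in Pi16-positive cells. The interferon-stimulated median was 0.82 with at least 1000 genes and at most 5% mitochondrial UMIs, against 0.56. Signs turned for few genes. Acta2 stood at -1.74 and Tagln at -0.47 (log2) with at least 2 Pi16 UMIs. They stood at -1.35 and -1.60 with cells holding Ptprc, Cdh5 or Rgs5 left out. Without the 5 cells rich in Ccl19 and Ccl21a they stood at -1.72 and -0.99. Ifit3 stood at -0.01 after thinning. The salivary list median was -0.25 after thinning. That of the B cell list, which rests on 1 gene, was -0.22 with cells holding Ptprc, Cdh5 or Rgs5 left out. It was -0.34 without the 5 cells. The cause of these moves was not tested. Leaving out the 5 cells, and the top cell of each gene, were added after the data were seen. With 57 and 72 cells, a gene near 50 CPM rests on 15.1 UMIs in SAH and 17.7 in sham, which limits every ratio at that level.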
